A study of Mus musculus with 4 samples.

Results

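Mesenchymal and EMT transcription factors are described here across 4 mouse arrays. EMT, the epithelial to mesenchymal transition, is the change in which a polarised, tightly joined epithelial cell becomes a motile mesenchymal one. The members are 8 listed genes, Snai1, Snai2, Zeb1, Zeb2, Twist1, Twist2, Prrx1 and Prrx2, taken wherever a probe set of the array carries that symbol alone. Of the 8, 7 have such a probe set, exactly 1 each, among 22180 genes named in this way. Zeb2 is not among them, because both of its 2 probe sets also list another gene, so no Zeb2 value is given.

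Total RNA was hybridised to 1 array for each of 4 cultures, so no condition has a replicate. Of the pair of iPSC (induced pluripotent stem cell) arrays, 1 is labelled 10 day and the other 38 h, and the labels call both stable clones from fibroblasts with a Sumo2 knockdown. What those times count is not stated. The 2 other arrays hold bulk cultures of reprogrammable mouse embryonic fibroblasts, which carry reprogramming factors switched on by doxycycline, at day 6 of induction: a culture labelled Sumo2 knockdown and a Firefly knockdown control. All cultures share the strain Black6-129X1/SvJ, pooled male and female cells, and growth in embryonic stem cell medium with serum, and the treatment note on each of them names ascorbic acid with doxycycline. Being bulk cultures, they do not tell a lower share of mesenchymal cells from less RNA per cell.

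The targeted gene was checked first. Sumo2 read 10.56 on the array labelled Sumo2 knockdown and 10.65 on the Firefly array, in log2 RMA units, the scale of all levels here. The label is therefore not borne out by its transcript, and every direction drawn from that culture rests on the label. Array-wide, each array has a measuring floor, the median of its single-symbol probe sets, between 6.64 and 6.67, and a gene counts as measured when it reaches the floor on at least 1 array compared. The fibroblast marker list held 10 genes, and Twist2 was left out of it after the data were seen because it is also a member. Of the other 9 markers, 7 reached the floor on the 10 day iPSC array and 8 on the 38 h array, against 7 on the array labelled Sumo2 knockdown and 7 on the Firefly array. Their mean log2 level was 8.26 and 8.67 in the 10 day and 38 h iPSC, against 8.48 and 8.99 in the day 6 cultures labelled Sumo2 and Firefly knockdown. These means hide a split. By the test given below, 2 of 8 measured markers rose in the iPSC (Postn and Fbln2), beside 29.0% of all measured genes. Another 2 fell (Thy1 and Col1a2), beside 17.8%, and 4 did not pass. After cyclic loess Fbln2 did not pass. Lum lay below the floor on every array. Of 10 pluripotency markers, 9 reached the floor in each iPSC, against 6 in the culture labelled Sumo2 knockdown and 3 in the Firefly culture, and their mean level was 10.01 and 9.98 in the 10 day and 38 h iPSC, against 7.57 in the culture labelled Sumo2 knockdown and 6.55 in the Firefly culture. Nanog, a core pluripotency factor, read 12.50 and 12.05 in the 10 day and 38 h iPSC, against 9.87 and 7.54 in the day 6 cultures labelled Sumo2 and Firefly knockdown. How far shifts in the share of each cell type enter the results below was not tested.

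The members belong to 4 small families. SNAI1 (Snail), SNAI2 (Slug), ZEB1 and ZEB2 are zinc finger repressors that bind a form of the E-box, the 6 letters CACCTG, in promoters of epithelial genes such as that for E-cadherin. TWIST1 and TWIST2 are basic helix-loop-helix proteins that pair with E proteins and shape mesoderm and skeletal mesenchyme. PRRX1 and PRRX2 are paired-type homeodomain proteins of limb and craniofacial mesenchyme, and fibroblasts are rich in PRRX1. Reprogramming of fibroblasts runs through the opposite transition, from mesenchymal to epithelial, early on.

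The sequences that bear on these repressors are shown from RefSeq tables of build GRCm38.p6, each covering 250 bases before to 50 after a gene start, 300 bases in all. Capitals mark CACCTG or its reverse complement CAGGTG. Crb3 has 2 windows, and the first is shown. The 4 epithelial genes were chosen because their transcripts rose in the iPSC and each window holds more than 1 copy, and Snai1 because it is the only member searched with the motif in its window.
Epcam (chr17:87635729-87636028, plus strand): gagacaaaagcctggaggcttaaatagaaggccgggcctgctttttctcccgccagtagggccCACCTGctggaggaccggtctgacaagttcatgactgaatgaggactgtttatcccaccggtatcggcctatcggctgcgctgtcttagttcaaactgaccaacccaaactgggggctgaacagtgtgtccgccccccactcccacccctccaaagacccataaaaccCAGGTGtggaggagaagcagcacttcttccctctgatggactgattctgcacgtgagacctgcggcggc
Crb3 (chr17:57061951-57062250, plus strand): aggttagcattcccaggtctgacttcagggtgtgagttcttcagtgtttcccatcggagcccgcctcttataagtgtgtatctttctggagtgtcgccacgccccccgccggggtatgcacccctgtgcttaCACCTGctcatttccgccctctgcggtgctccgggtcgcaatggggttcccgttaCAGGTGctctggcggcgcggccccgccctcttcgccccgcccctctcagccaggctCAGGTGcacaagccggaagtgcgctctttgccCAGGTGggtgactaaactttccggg
Cldn4 (chr5:134946885-134947184, minus strand): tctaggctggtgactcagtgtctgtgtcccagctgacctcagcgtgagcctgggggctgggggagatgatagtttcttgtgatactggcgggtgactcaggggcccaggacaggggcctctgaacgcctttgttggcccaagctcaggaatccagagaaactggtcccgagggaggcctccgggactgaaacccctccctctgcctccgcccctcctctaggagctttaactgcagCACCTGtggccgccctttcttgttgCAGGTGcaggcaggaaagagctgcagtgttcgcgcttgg
Cldn6 (chr17:23679115-23679414, plus strand): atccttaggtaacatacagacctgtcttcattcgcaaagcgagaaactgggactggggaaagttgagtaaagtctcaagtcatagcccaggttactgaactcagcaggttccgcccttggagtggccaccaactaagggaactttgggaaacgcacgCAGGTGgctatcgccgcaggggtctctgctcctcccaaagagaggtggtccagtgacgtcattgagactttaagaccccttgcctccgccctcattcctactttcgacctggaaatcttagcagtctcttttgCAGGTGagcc
Snai1 (chr2:167537945-167538244, plus strand): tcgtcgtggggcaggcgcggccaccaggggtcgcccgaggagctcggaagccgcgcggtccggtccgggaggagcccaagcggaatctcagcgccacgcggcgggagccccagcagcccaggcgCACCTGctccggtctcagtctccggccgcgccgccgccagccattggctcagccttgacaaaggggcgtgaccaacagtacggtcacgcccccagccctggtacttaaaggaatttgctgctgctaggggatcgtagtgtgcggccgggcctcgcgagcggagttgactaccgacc

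On either strand, the motif occurs in the windows of 6098 of 27025 genes, which is 22.6%. A gene with several windows counted when at least 1 of them held the motif. Windows on chromosome 18 were left out of this count and of those that follow. Among the 24 listed epithelial genes, 15 had a window searched and 14 of these hold the motif, which is 93.3%. Cgn, a tight junction gene, is the exception. For 27 listed mesenchymal effector genes, 14 had a window searched and 1 holds the motif, in Sparc, which is 7.14%. Some of the epithelial genes are known as targets because such boxes were studied in them, so the share describes the list and is not independent of it. A match does not show binding. It was present in 7 of 7 searched epithelial genes that rose in the iPSC by the test given below and in 7 of 8 that did not pass, so with a single gene lacking it the motif could not be set against the response. Cldn7, which rose, held the motif in only 1 of its 2 windows. Windows of 6 members were searched. Zeb1, on chromosome 18, was left out, and Snai2 had no window. Only Snai1 held the motif, once, and Twist1, Twist2, Prrx1, Prrx2 and Zeb2 had none in these letters.

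The first comparison set the 2 iPSC arrays against the 2 day 6 arrays. Prrx1, Twist1, Prrx2, Zeb1 and Snai2 fell, while Snai1 and Twist2 did not pass the test. The fall was 4.91-fold for Prrx1 and 3.05-fold for Twist1, and under 2-fold for the other 3. The test was limma's moderated test across 12735 measured genes, with a call at a Benjamini-Hochberg adjusted p under 0.05. In that fit 17.8% of all measured genes were called lower and 29.0% higher, or 46.8% in either direction. The count of 5 of 7 members called lower, and 0 higher, stands beside those shares. The median log2 difference was -0.77 over the 7 members and 0.15 over all measured genes. Twist2 entered the fit only through the Firefly array, the single array on which it reached the floor. Because the arrays of a pair are different cultures, the error in this fit also holds what sets those cultures apart. Both iPSC are labelled as derived from Sumo2 knockdown fibroblasts, while the day 6 pair includes the Firefly control. Stage and knockdown label therefore cannot be fully told apart in the difference itself. With 2-fold required as well, 2 of 7 members were lower, Prrx1 and Twist1, beside 9.12% of measured genes lower, 14.3% higher and 23.4% in either direction. Without regard to a test, both iPSC values lay below both day 6 values in 5 of 7 members, beside 32.7% of measured genes placed that way, 46.8% placed the opposite way and 79.5% in either.

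**Figure D1:**
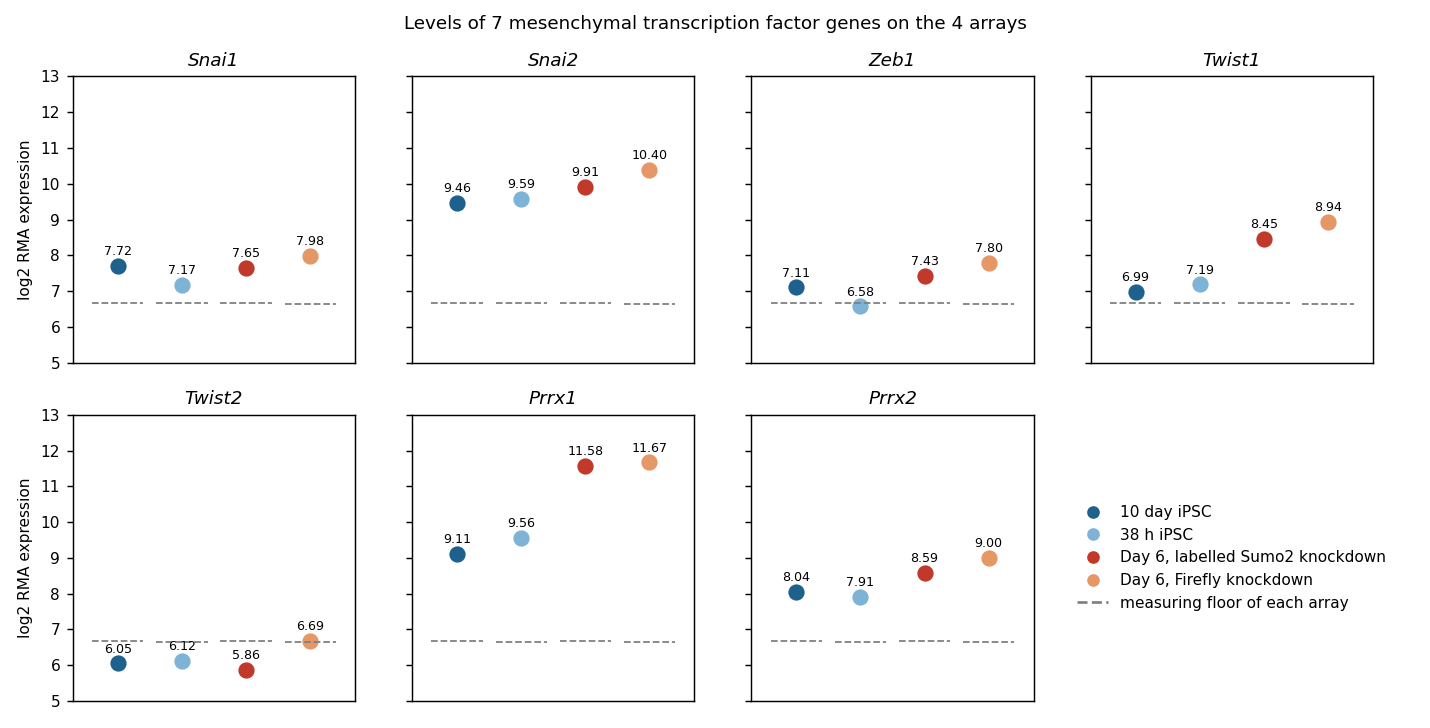
Each panel plots the log2 RMA level (y axis) of 1 gene on the 4 arrays, with the 2 iPSC arrays at the left, the day 6 arrays at the right and a dashed line at each array's measuring floor. Prrx1 and Twist1 show wide gaps between the iPSC and day 6 points, Snai1 points overlap, and Twist2 reaches the floor only on the Firefly array, at 6.69.

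Prrx1 showed the widest gap. It read 9.11 in the 10 day and 9.56 in the 38 h iPSC, against 11.58 in the culture labelled Sumo2 knockdown and 11.67 in the Firefly culture. Both iPSC values lay more than 2 log2 units (2.02) below the lower day 6 value, yet well above the floor. The log2 difference was -2.29 (SE 0.18, limma adjusted p = 0.000455), which leaves 20.4% of the day 6 level. Its relative Prrx2, which acts with it in limb and face mesenchyme, differed by less. Prrx2 read 8.04 and 7.91 in the 10 day and 38 h iPSC, against 8.59 and 9.00 in the day 6 cultures labelled Sumo2 and Firefly knockdown. The pairs did not overlap, with 0.54 between them, and the difference was -0.82 (SE 0.20, limma adjusted p = 0.0165). Without the Firefly array the difference in Prrx2 was -0.61 and its limma adjusted p 0.0996, so the call depends on that array.

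Twist1, a regulator of mesoderm and of cranial suture formation, came closest to Prrx1 in size. Its levels were 6.99 and 7.19 in the 10 day and 38 h iPSC, against 8.45 and 8.94 in the day 6 cultures labelled Sumo2 and Firefly knockdown. Day 6 values stood clear of the floor, and the iPSC values lay within 1 log2 unit above it. The difference was -1.61 (SE 0.21, limma adjusted p = 0.00211), or 32.8% of the day 6 level. Twist1 and Prrx1 were the members that passed with every array left out in turn. Twist2, which represses bone and muscle differentiation, read 6.05 and 6.12 in the 10 day and 38 h iPSC, against 5.86 and 6.69 in the day 6 cultures labelled Sumo2 and Firefly knockdown. Since 3 of those values lie below the floor, their order carries no information. Its fitted difference was -0.19 (SE 0.31, limma adjusted p = 0.637).

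Snai2, the Slug repressor of neural crest and fibroblasts, was well above the floor in the iPSC. Its levels were 9.46 and 9.59 in the 10 day and 38 h iPSC, against 9.91 and 10.40 in the day 6 cultures labelled Sumo2 and Firefly knockdown. The pairs did not overlap, although the 2 day 6 values differed by more than the step between the pairs (0.33). The difference was -0.63 (SE 0.20, limma adjusted p = 0.0415), so 64.7% of the day 6 level remained. The call for Snai2 was lost without the Firefly array (-0.39, limma adjusted p = 0.178), without the 10 day iPSC (-0.57, adjusted p = 0.102) and without the 38 h iPSC (-0.69, adjusted p = 0.0532).

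Snai1, the Snail repressor needed for gastrulation, gave overlapping pairs. It read 7.72 and 7.17 in the 10 day and 38 h iPSC, against 7.65 and 7.98 in the day 6 cultures labelled Sumo2 and Firefly knockdown. The 10 day value lay above that of the culture labelled Sumo2 knockdown. The difference between pairs was -0.37 (SE 0.24, limma adjusted p = 0.239), less than the 0.54 between the iPSC lines. The Snai1 value rested on single arrays: it was -0.10 without the 38 h iPSC, -0.20 without the Firefly culture and -0.64 without the 10 day iPSC, and it passed in none of these fits (limma adjusted p = 0.78, 0.644 and 0.0725).

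Zeb1, a repressor that holds epithelial genes off in mesenchymal cells, read 7.11 and 6.58 in the 10 day and 38 h iPSC, against 7.43 and 7.80 in the day 6 cultures labelled Sumo2 and Firefly knockdown. The 38 h value was below the floor and the 10 day value near it. As read the difference was -0.77 (SE 0.25, limma adjusted p = 0.0414), and counted from the floor Zeb1 was at least 1.66-fold lower. The call for Zeb1 was lost without the culture labelled Sumo2 knockdown (-0.96, limma adjusted p = 0.0737), without the Firefly culture (-0.58, adjusted p = 0.228) and without the 38 h iPSC (-0.51, adjusted p = 0.146).

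In the second comparison the culture labelled Sumo2 knockdown was set against the Firefly culture at day 6. All 7 members read lower in it, by small steps, and 0 of 7 by 2-fold. Twist2 counted as measured in this pair only through the Firefly array, so its direction was set by the filter. Only the other members inform the direction. Of 11740 genes measured in this pair, 46.3% read lower and 53.7% higher by any amount, 0.230% read at least 2-fold lower and 1.18% at least 2-fold apart in either direction. With 1 array each there is no test, and the members were listed with results of this comparison known. The median log2 difference was -0.41 over the 7 members, Twist2 included, against 0.02 over all genes measured in the pair.

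The steps were alike in size for 5 of the 7. Twist1 differed by -0.49, Snai2 by -0.48, Prrx2 by -0.41, Zeb1 by -0.37 and Snai1 by -0.33, which put the culture labelled Sumo2 knockdown at 71.4% to 79.3% of the Firefly level. Prrx1, the member furthest apart between iPSC and day 6, was nearly equal in the day 6 pair, at 93.8% of the Firefly level. Twist2 read 0.82 lower, but it lay below the floor in the culture labelled Sumo2 knockdown and just above it in the Firefly culture, so counted from the floor it was lower by a factor of at least 1.01 only. It was the 1 member past a 1.5-fold rule as read, a rule met by 2.81% of measured genes on the lower side, 4.09% on the higher side and 6.90% in all. Beside these, all 7 fibroblast markers other than Twist2 that were measured in the pair read lower (median -0.56). All 6 measured pluripotency markers read higher (median 1.61, with 1 of the 6 lower after cyclic loess). Of these, Esrrb, Tdgf1 and Lin28a counted as measured only through the array labelled Sumo2 knockdown, so the filter set their direction. Only Nanog, Utf1 and Pou5f1 inform it. The part of both marker lists in the members' steps was not tested.

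The third comparison set the 10 day against the 38 h iPSC. Members read in both directions: Snai1 (0.54), Zeb1 (0.53 as read, 0.45 counted from the floor) and Prrx2 (0.13) read higher in the 10 day line, and Prrx1 (-0.45), Twist1 (-0.20) and Snai2 (-0.12) read lower. Twist2 was below the floor in both lines and was not measured. Of 11754 genes measured, 3.22% were at least 2-fold apart, 2.19% higher and 1.03% lower in the 10 day line, and 0 of 6 measured members were. At 1.5-fold the count of members was again 0 of 6, beside 10.5% of measured genes, 6.44% higher and 4.11% lower. By any amount, 3 of 6 members were higher and 3 lower, beside 47.4% and 52.5% of measured genes. The median was 0.00 over these 6 members and -0.02 over all genes measured in the pair. Snai1, Zeb1 and Prrx2 thus gave their lowest value in the 38 h line, while Prrx1, Twist1 and Snai2 gave theirs in the 10 day line.

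**Figure D2:**
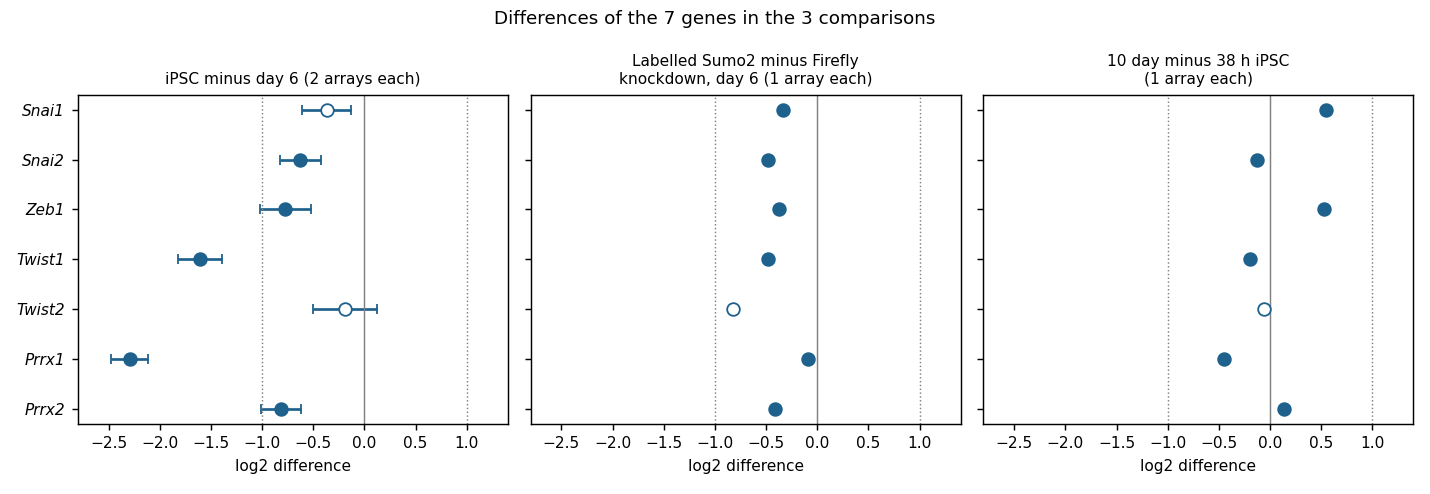
Log2 differences (x axis) of the 7 genes in the 3 comparisons, with bars of 1 SE from limma where 2 arrays stand on each side and dotted lines at 2-fold. Open points did not pass the test or, for Twist2, rest on values below the floor; all points are left of 0 in the first and second panels, while in the third 3 lie on the right.

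Across the 4 arrays each of the 6 members other than Twist2 was highest on the Firefly array. Twist2 reached the floor only there, so its place was set by the filter. The share of all measured genes highest on that array was not counted, so the place of the 6 has no background. That place also partly repeats the first and second comparisons. The profiles were compared as the Euclidean distance between log2 values centred on each gene's own mean over the 4 arrays, which is a description over 4 points that share arrays. Twist2 was left out, since most of its profile lies below the floor. Among the other 6 members the closest profiles were Snai2 with Prrx2 (distance 0.26) and Zeb1 with Prrx2 (0.29), and the farthest were Snai1 with Prrx1 (2.06). The distance within a family was 1.55 for Prrx1 with Prrx2 and 0.55 for Snai1 with Snai2.

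For the 4 members that span at least 1 log2 unit, the nearest of 11719 named genes were listed by rule. Prrx1 lay nearest to the metal transporter gene Slc39a14 (0.06), the gene of the helix-loop-helix inhibitor Id1 (0.07) and the matrix peroxidase gene Pxdn (0.10). Twist1 lay nearest to Parp3 (0.03), Pdgfrl (0.04) and the volume-regulated channel subunit gene Lrrc8c (0.06). Prrx2 lay nearest to the non-coding RNA gene Carmn (0.03), Slc18b1 (0.04) and the ubiquitin ligase gene Peli3 (0.05). Zeb1 lay nearest to the dermatan sulphotransferase gene Chst14 (0.05), Rusc2 (0.07) and the creatine synthesis gene Gamt (0.08).

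**Figure D3:**
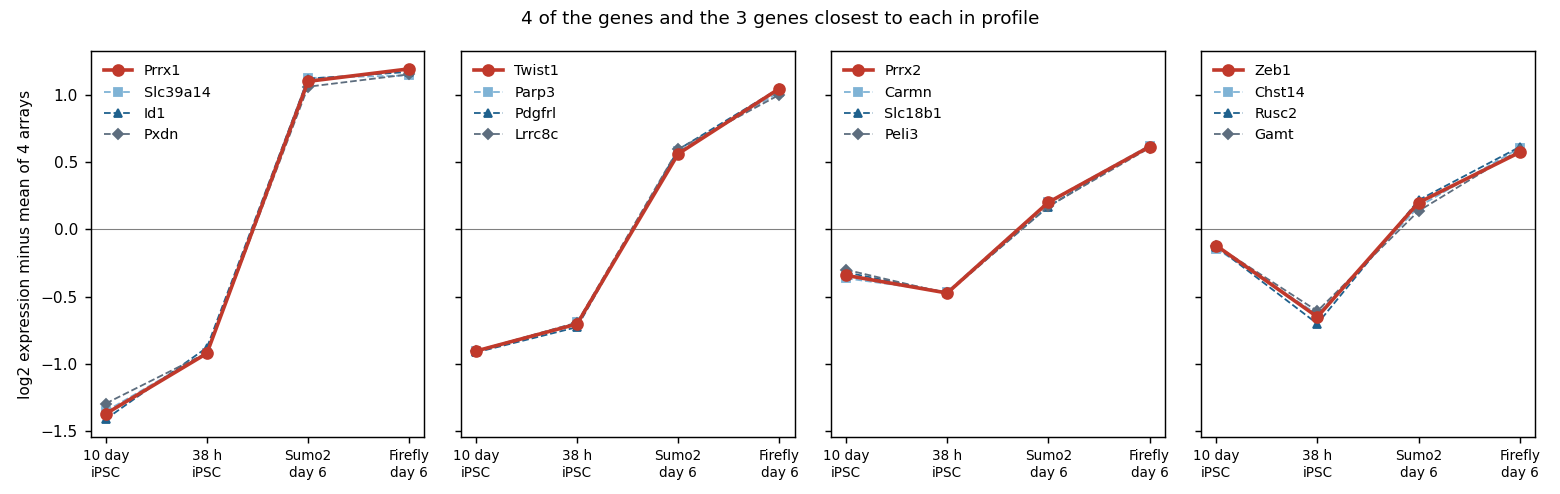
Each panel draws 1 gene (red) and its 3 nearest profiles as log2 expression minus the mean of the 4 arrays (y axis) on the 4 arrays (x axis), iPSC at the left. The neighbours lie almost on top of each gene, with distances of 0.03 to 0.10.

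Counts of called genes in the lists that follow stand beside the shares of all measured genes given above, 29.0% called higher and 17.8% called lower in the iPSC. Counts of genes that read lower by any amount at day 6 stand beside 46.3% of all genes measured in that pair. In every list, a gene that entered only through the arrays where it was high had its direction favoured by the filter. The first list holds partners and inhibitors of the TWIST proteins. E proteins pair with TWIST1 and other helix-loop-helix factors, and ID proteins bind E proteins and keep them off DNA. Of 7 genes on this list 6 fell and 0 rose, with a median log2 difference of -1.95. Id3 read 7.46 and 7.59 in the 10 day and 38 h iPSC, against 10.25 and 10.51 in the day 6 cultures labelled Sumo2 and Firefly knockdown (difference -2.86, limma adjusted p = 0.000235). The other ID genes showed differences of -2.29 for Id1, -2.00 for Id2 and -1.95 for Id4, and the E protein genes -0.99 for Tcf12 and -0.72 for Tcf4. The Tcf4 call was lost without either day 6 array or the 10 day iPSC (limma adjusted p between 0.064 and 0.118). Tcf3 (-0.32, limma adjusted p = 0.122) did not pass with the deposited scaling and passed after cyclic loess (-0.50, adjusted p = 0.0319). At day 6 this list barely differed, with a median of -0.01, 5 of 7 genes lower in the culture labelled Sumo2 knockdown and 0 past 2-fold. Id2 (0.32) and Tcf3 (0.05) read higher, and 1 of the 7 did after cyclic loess.

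Further transcription factors linked to EMT or to fibroblasts, 19 measured of 28, gave 10 that fell, 3 that rose and 6 that did not pass (median -0.68). Meox2, a homeobox gene of mesoderm, fell at least 4.33-fold and Tbx18, a T-box gene of mesenchyme, at least 3.64-fold, both counted from the floor because the iPSC lay below it. Runx1, known from blood and also active in mesenchyme, fell by 2.07 on the log2 scale and Tbx15 by 1.84. Those that rose were Klf8 (at least 6.22-fold, with the Firefly value below the floor), Osr1 (0.80) and Tead2 (0.57), and Tead2 did not pass after cyclic loess (0.40, limma adjusted p = 0.0657). Klf8 stands on the list because it can repress the E-cadherin gene in human cells. The calls for Osr1 and Tead2 were each lost without either day 6 array. Without the Firefly array 6 of this list fell and 1 rose; without the culture labelled Sumo2 knockdown 8 fell and 1 rose. At day 6, 16 of 18 measured genes read lower in the culture labelled Sumo2 knockdown, 0 by 2-fold, while Etv4 (0.85) and Klf8 (0.62 as read) read higher.

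Of 16 closer relatives of the members, 10 were measured, of which 2 rose, 1 fell and 7 did not pass (median -0.24). Snai3, the third Snail gene, rose: it read 8.20 and 8.71 in the 10 day and 38 h iPSC, against 7.39 and 7.11 in the day 6 cultures labelled Sumo2 and Firefly knockdown (difference 1.20, limma adjusted p = 0.0068), opposite in direction to Snai2. Tcf15, a helix-loop-helix gene of somites that is also found in pluripotent cells, rose at least 3.36-fold from below the floor. Alx4, a limb and face homeobox gene, fell at least 1.41-fold. Without the Firefly array 1 relative rose and 0 fell, and neither Snai3 (1.07, limma adjusted p = 0.0629) nor Alx4 (-0.64, adjusted p = 0.123) passed. Hand1, a helix-loop-helix gene of heart and placenta, read 7.77 in the 10 day and 6.45, below the floor, in the 38 h iPSC.

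Corepressors and modifiers that act on Snail or ZEB proteins held both directions, with 10 of 23 measured up and 5 down (median 0.30). The Polycomb methyltransferase gene Ezh2 (1.17), the histone demethylase gene Kdm1a (1.10), Ajuba (1.02), which encodes a LIM protein that bridges SNAI1 to corepressors, and Fbxo45 (0.94) had the largest differences upward. Lats2 (-1.71), Loxl3 (-1.32), Limd1 (-0.73), Gsk3b (-0.65) and Ctbp1 (-0.60), whose protein binds ZEB factors, fell. After cyclic loess 7 rose and 5 fell, and without the Firefly array 4 rose and 3 fell, with Fbxo45, Limd1 and Ctbp1 among the calls lost.

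Of 19 EMT inducing signal genes, 8 fell and 4 rose (median -0.25). Met, the receptor for hepatocyte growth factor, fell at least 10.5-fold. Tgfb3 (-1.86), the receptor gene Tgfbr2 (-1.66), Hmga2 (-1.51), Egfr (-1.39) and Tgfb2 (-1.22) also fell, as did Smad3 and Jag1 (each -0.62). Those that rose were Smad7 (1.73) and Skil (1.25), both inhibitors of the TGF-beta pathway, the activin subunit gene Inhba (1.24) and Smad2 (0.51), which did not pass after cyclic loess (0.33, limma adjusted p = 0.112). The calls for Smad2, Smad3 and Jag1 were lost whichever array was left out. Leaving out the Firefly array, 5 fell and 3 rose, and Tgfb2 (-1.27, limma adjusted p = 0.0504) did not pass.

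Among 25 measured mesenchymal effector genes 12 fell, 3 rose and 10 did not pass (median -0.51), so the effectors followed no single direction. Mmp14 (-1.65), Tagln (-1.65), the hyaluronan receptor gene Cd44 (-1.57) and Cdh2 (-1.53), which encodes N-cadherin, had the largest falls after the surface marker gene Thy1 (-2.70). Counted from the floor, the matrix gene Postn rose at least 4.01-fold and the receptor gene Pdgfra at least 1.41-fold, Lox rose by 0.82, and Fn1 (0.19, limma adjusted p = 0.0543) did not pass. Without the Firefly array 7 fell and 4 rose, and Pdgfra (1.06, limma adjusted p = 0.124) did not pass. All 23 effectors measured at day 6 read lower in the culture labelled Sumo2 knockdown, 0 by 2-fold, beside 46.3% of all genes measured in that pair. Of the 9 fibroblast markers 7 are also on this list, so the counts are not separate observations.

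Of 24 measured epithelial genes that factors of EMT are known to repress, 10 rose in the iPSC, 0 fell and 14 did not pass (median 0.79), beside 29.0% of all measured genes called higher. Cdh1, which encodes E-cadherin, read 11.42 and 11.59 in the 10 day and 38 h iPSC, against 10.41 and 8.24 in the day 6 cultures labelled Sumo2 and Firefly knockdown (difference 2.18, limma adjusted p = 0.0296). Both iPSC values were higher than both day 6 values, which lay far apart, and without the Firefly array the Cdh1 difference was 1.09 (limma adjusted p = 0.0146). Epcam, an epithelial adhesion gene, read 10.62 and 10.96 in the 10 day and 38 h iPSC, against 9.78 and 7.10 in the day 6 cultures labelled Sumo2 and Firefly knockdown. The Epcam difference was 2.35 (limma adjusted p = 0.0458) with the deposited scaling and did not pass after cyclic loess (2.16, adjusted p = 0.0608) or without the 38 h iPSC (2.18, adjusted p = 0.0541). It was 1.01 without the Firefly array and 3.69 without the culture labelled Sumo2 knockdown, so its size rests on which day 6 culture is used.

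The tight junction genes Cldn4 (2.67), Cldn6 (2.11) and Tjp3 (1.78) and the polarity genes Llgl2 (2.18) and Crb3 (1.08) also rose, and ZEB1 is known to repress the last of these in human cells. With the Firefly array left out 5 epithelial genes rose, and neither Cldn6 (1.37, limma adjusted p = 0.0917) nor Crb3 (0.94, adjusted p = 0.077) passed. At day 6, 8 of 21 measured epithelial genes were at least 2-fold higher in the culture labelled Sumo2 knockdown and 0 lower, beside 0.945% of all measured genes at least 2-fold higher. Epcam (2.68), Cdh1 (2.18), St14 (1.73), a membrane protease, and Dsp (1.65), a part of desmosomes, had the largest differences. Cldn6 (1.47), Cldn4 (1.22) and the splicing regulator genes Esrp1 and Esrp2 (each 1.24) made up the rest. Dsp and Esrp1 lay below the floor in the Firefly culture, so the filter set their direction. Counted from the floor Dsp differed by 1.59, and Esrp1 by 0.70, which is under 2-fold. Between the iPSC lines, Dsp (1.06) and the keratin gene Krt8 (1.01) were at least 2-fold higher in the 10 day line.

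Epithelial transcription factors that oppose EMT gave 4 up and 2 down of 8 measured. Elf3 (at least 11.5-fold), Grhl3 (at least 9.10-fold), Klf5 (2.38) and Grhl2 (at least 1.29-fold) rose. Klf4 (-1.09), also used as a reprogramming factor, and Ehf (at least 2.24-fold lower) fell. Elf3 and Grhl2 were measured only through the iPSC arrays and Ehf only through the day 6 arrays, so the filter set their direction. Whether the Klf4 probe set also reads a transgene was not tested. Ovol2 (0.18, limma adjusted p = 0.421), a repressor of Zeb1, did not pass. The Grhl2 call was lost when the Firefly array was left out (0.70, limma adjusted p = 0.117). At day 6, Grhl3 (2.21, or 1.92 counted from the floor) and Tfap2c (1.48, or 1.39 counted from the floor) were at least 2-fold higher in the culture labelled Sumo2 knockdown. Both were measured in that pair only through that culture, so the filter set their direction there. Tfap2c (1.42) was also at least 2-fold higher in the 10 day than in the 38 h iPSC.

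**Figure D4:**
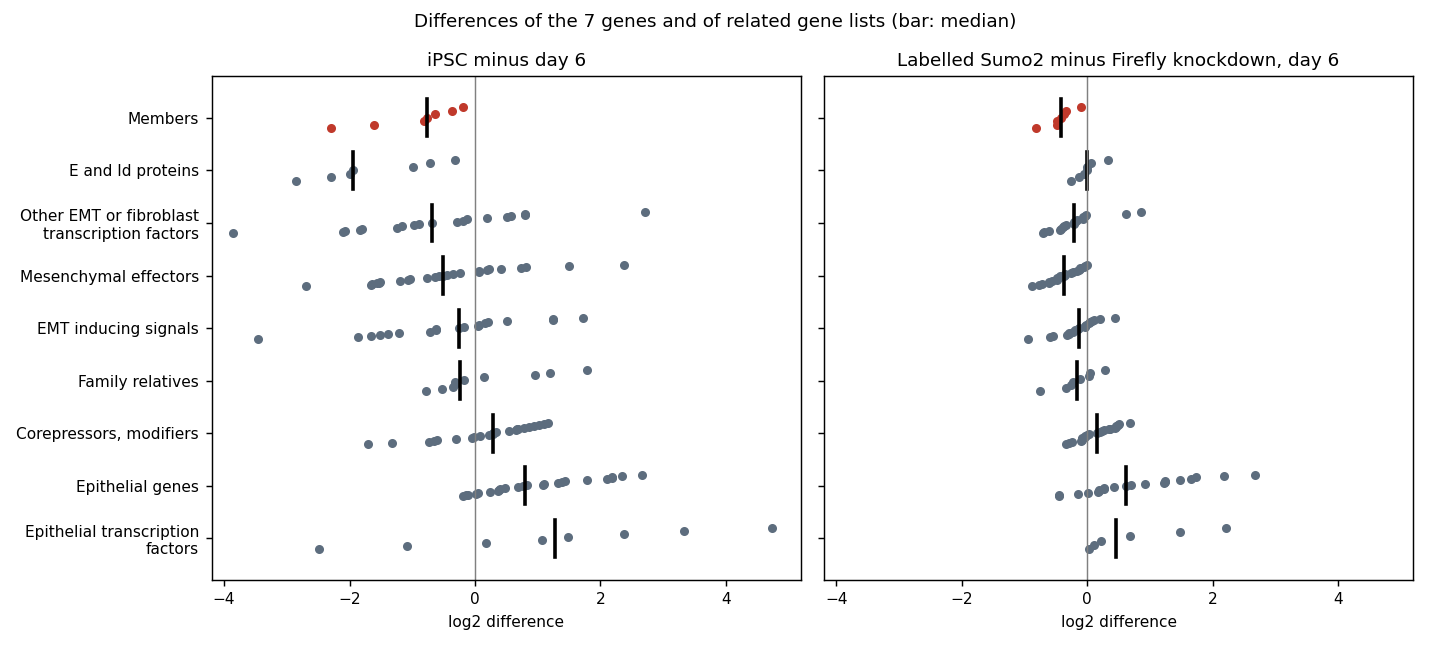
Every point is 1 measured gene, placed by its log2 difference (x axis), for the 7 members (red) and 8 related lists (rows), with a bar at the median. In the iPSC comparison (left) the members' median is -0.77 and that of E and ID proteins -1.95, and the medians of both epithelial lists lie right of 0; at day 6 (right) the members' median is -0.41 and that of E and ID proteins -0.01.

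The miR-200 family is the best known brake on the ZEB genes: these microRNAs repress ZEB1 and ZEB2 in epithelial cells, and the ZEB proteins repress the miR-200 genes in turn. The mature strands of the family whose precursors have a single-symbol probe set are printed 5′ to 3′, from RefSeq tables of build GRCm38.p6, to show that they fall into 2 groups by the seed, bases 2 to 8, in capitals.
mmu-miR-200b-3p (chr4:156055685-156055706, minus strand): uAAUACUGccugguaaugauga
mmu-miR-200c-3p (chr6:124718324-124718346, minus strand): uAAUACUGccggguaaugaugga
mmu-miR-200a-3p (chr4:156054911-156054932, minus strand): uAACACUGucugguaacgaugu
mmu-miR-141-3p (chr6:124717917-124717938, minus strand): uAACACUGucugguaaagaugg

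The first pair shares the seed AAUACUG and the second AACACUG. The arrays read precursor or host transcripts here, not mature strands. Mir200b read 7.64 and 7.18 in the 10 day and 38 h iPSC, against 5.82 and 6.14 in the day 6 cultures labelled Sumo2 and Firefly knockdown. It was above the floor in both iPSC and below it in both day 6 cultures, at least 1.68-fold higher (limma adjusted p = 0.00467). Mir200a, its neighbour on chromosome 4, reached the floor only in the 10 day line (6.89, against 6.23 in the 38 h line) and did not pass (limma adjusted p = 0.249). Mir205, another microRNA known to repress the ZEB genes, also reached the floor only in the 10 day line (6.91, against 5.07 in the 38 h line). Counted from the floor, Mir200a and Mir205 differed between the lines by 0.24 and 0.25 only. Mir200c and Mir141 were below the floor on every array, as were the listed Mir34 precursors, whose family is known to repress Snai1.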

How the data were processed

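Total RNA of 4 cultures was measured on 1 Affymetrix array each. The deposited values are log2 expression per probe set, between 2.98 and 13.7. The submitters' processing notes name RMA and Affymetrix Expression Console, without versions or settings, and base 2 was taken from the scale that RMA writes. RMA's quantile step hides a change of total RNA, and RMA as a whole shrinks differences of dim probe sets. Arrays give no counting depth, and precision is limited by how few there are.

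Of 41345 probe sets, 23521 have 1 gene symbol in the platform annotation, 1814 several and 16010 none. Symbols were checked by Entrez identifier against a GRCm38.p6 gene table, which holds 23328 of them and changed 0. For each of 22180 genes the probe set with the highest mean was used, which left 12735 genes measured on the 4 arrays. The comparison of iPSC with day 6 used limma 3.58.1 in R 4.3.3 (eBayes, trend on mean level, residual degrees of freedom 2, Benjamini-Hochberg adjusted p under 0.05), tested on simulated data. Both other comparisons have 1 array a side and no test, with 2-fold as the rule. Differences counted from the floor set lower values to it. The labels do not say how separate the cultures were, so p-values measure only the spread between these arrays.

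The members, 9 gene lists and marker lists were chosen with earlier results of these data known. Besides the members, Sumo2, Thy1, Nanog and Cdh1, the naming rule took up to 4 genes per list and comparison with the largest differences, all genes of a count of 5 or fewer, and 3 nearest profiles. Lists with no gene past 2-fold in a pair are mostly given by counts, and some further list genes were named after their values were seen. Alternatives were cyclic loess scaling, the median over probe sets, other filters, eBayes without trend, other fold rules and each array left out.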

Additional observations from a re-analysis of the deposited data

How the results depend on the processing

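With 1 array per condition, depth and replicate error are unknown, and values near the floor limit Zeb1, Twist2 and the microRNA precursors most. Cyclic loess moved the median iPSC minus day 6 difference of all measured genes by -0.13; the members' 5 calls remained. The members called lower in iPSC numbered 3 without a filter on low values (12735 genes grew to 22180 tested), where Snai2 and Zeb1 had limma adjusted p of 0.0551 and 0.0549, and 4 without the trend. Requiring 2-fold as well left 2 members, 1820 genes higher and 1161 lower, against 5, 3694 and 2264 by adjusted p alone. With each array left out in turn, the members called lower ranged from 2 to 4, genes higher from 1872 to 3196 and genes lower from 1161 to 2004, lowest each time without the Firefly array. A lone array was taken to vary like the other pair. At 1.5-fold, the day 6 pair had 480 genes higher and 330 lower, against 111 and 27 at 2-fold, and 1 member; the iPSC pair had 757 and 483, against 258 and 121. No member's called difference changed sign. No paired analysis was possible because the labels carry no replicate numbers.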
